A study of Mus musculus with 3 samples.

Results

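Regions enriched for 5-methylcytosine (5mC) were examined at 10 mouse genes that pressure load is known to induce in the heart muscle cell: Nppa, Nppb, Acta1, Ankrd1, Myc, Hmox1, Rcan1, Tnfrsf12a, Egr1 and Gdf15. They were taken by name from the 21887 protein-coding genes that RefSeq places on chromosomes 1 to 19, X and Y of GRCm38, the assembly that mm10 names. Each gene was taken with its body, from annotated start to annotated end, and 50 kb on either side. These windows held 91 of 162107 TAC peaks and 87 of 135886 Sham peaks.

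The peaks come from methylated DNA immunoprecipitation and sequencing (MeDIP-seq), in which an antibody against 5mC pulls down methylated DNA fragments. The TAC group was cardiomyocytes from mice under pressure overload for 1 week, and the Sham group was cardiomyocytes from sham-operated mice. Both groups, and an Input library made without antibody, came from male C57Bl6/J mice aged 8 weeks. Each group has 1 library, so there is no spread between replicates, and no test of TAC against Sham was run. The number of animals behind each library is not given in the sources used. Per the file headers, 34.7% of the 14658177 tags (sequenced fragments) of the TAC library fell within its peaks, against 29.9% of the 12585289 tags of the Sham library. A peak marks enrichment over input. It is not a methylation level, and a region without a peak may still be methylated below the calling threshold.

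Cytosines followed by guanine (CpG) are the main site of 5mC in mammalian DNA. Promoters dense in CpG are usually kept free of it, while most other CpGs, in gene bodies and between genes, are methylated. The genes described here share a response more than a function. Nppa and Nppb encode the cardiac hormones ANP and BNP, and Gdf15 a secreted stress cytokine. Acta1 encodes skeletal muscle actin, and Ankrd1 a stretch-responsive ankyrin repeat protein of the sarcomere and nucleus. Myc and Egr1 are immediate early transcription factors, Rcan1 is an inhibitor of calcineurin that calcineurin signalling itself induces, Tnfrsf12a is the receptor of the cytokine TWEAK, and Hmox1 is the inducible heme oxygenase. Most have been described as rising within hours to days of load.

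Across the windows together the peaks of both libraries were nearly equal in number. The 91 TAC and 87 Sham peaks gave a TAC share of 51.1% (exact 95% binomial interval 43.5 to 58.7, which covers counting error only). Over the windows of all protein-coding genes the TAC share was 52.7%, from 112475 TAC and 100874 Sham peaks, and the interval above holds that value. The density was 8.9 TAC and 8.51 Sham peaks per 100 kb, against 6.67 and 5.98 over all protein-coding gene windows. In base pairs the peaks covered 60.9 kb in TAC and 54.6 kb in Sham. Nppb and Nppa lie 13517 bp apart on chromosome 4, so their windows overlap, and the peaks they share are counted once in these sums.

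More TAC than Sham peaks lay in 6 of the 10 windows, and fewer in 4. Among the 21060 protein-coding genes with any peak in the window, 55.2% had more TAC peaks, 31.6% had fewer and 13.2% had equal numbers. TAC peaks numbered at least 1.5 times the Sham peaks in 1 member window, that of Acta1, against 26.8% of genes. No member had a Sham excess of that size, against 7.73% of genes. The members' counts thus lay among those of other genes, and the 6 windows with more TAC peaks include the pair at Nppa and Nppb, whose peaks are the same ones. Each member's interval of the TAC share held an even split.

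**Figure D1:**
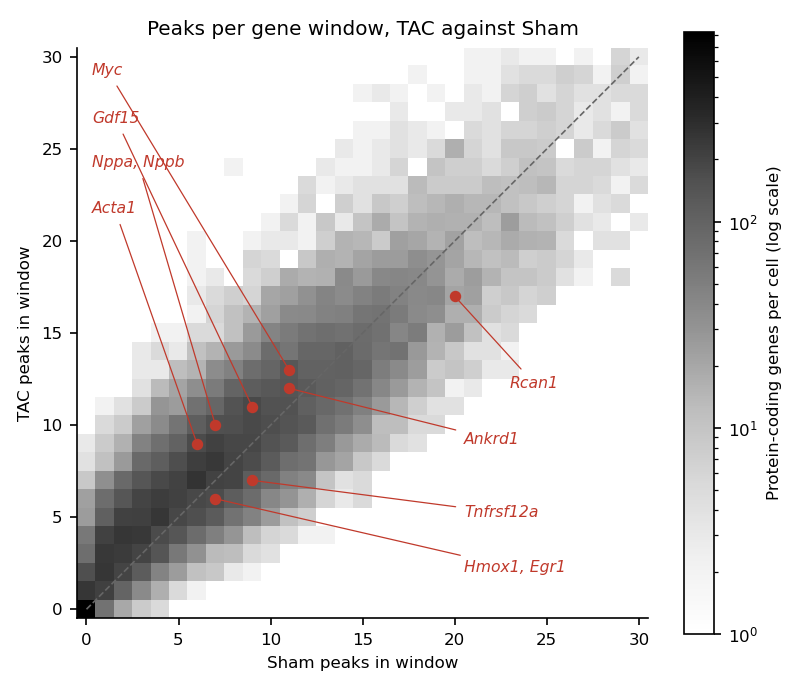
Number of TAC peaks (vertical axis) against Sham peaks (horizontal axis) in the body and 50 kb flanks of each protein-coding gene. Grey cells give the number of genes on a log scale, red points the 10 named genes, and the dashed line equal numbers; 700 genes with more than 30 peaks in a library are outside the plot. The named genes lie within the grey cloud, with Acta1 at 9 TAC and 6 Sham peaks and Rcan1 at 17 TAC and 20 Sham peaks.

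Sharing was close to that of the whole list in Sham and higher in TAC, within counting error in both. Sharing here means that peaks of both libraries have 1 bp or more in common. Of the TAC peaks 58 of 91 (63.7%, interval 53.0 to 73.6) were shared, against 55.6% of all TAC peaks. Of the Sham peaks 58 of 87 (66.7%, interval 55.7 to 76.4) were shared, against 66.1% of all Sham peaks. Over the windows of all protein-coding genes 58.8% of TAC and 65.3% of Sham peaks were shared. Both intervals hold these values and those of the whole lists. The 58 shared pairs overlapped by a median of 501 bp and by no less than 389 bp, so no pair was called on a sliver. The TAC peak was the wider in 29 pairs, the Sham peak in 14, and widths were equal in 15. Shared peaks had a median width of 629 bp in TAC and 501 bp in Sham, against 627 and 626 bp over the whole lists. Which peak was wider was not counted over the pairs of the whole lists, so nothing is read from these counts.

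**Figure D2:**
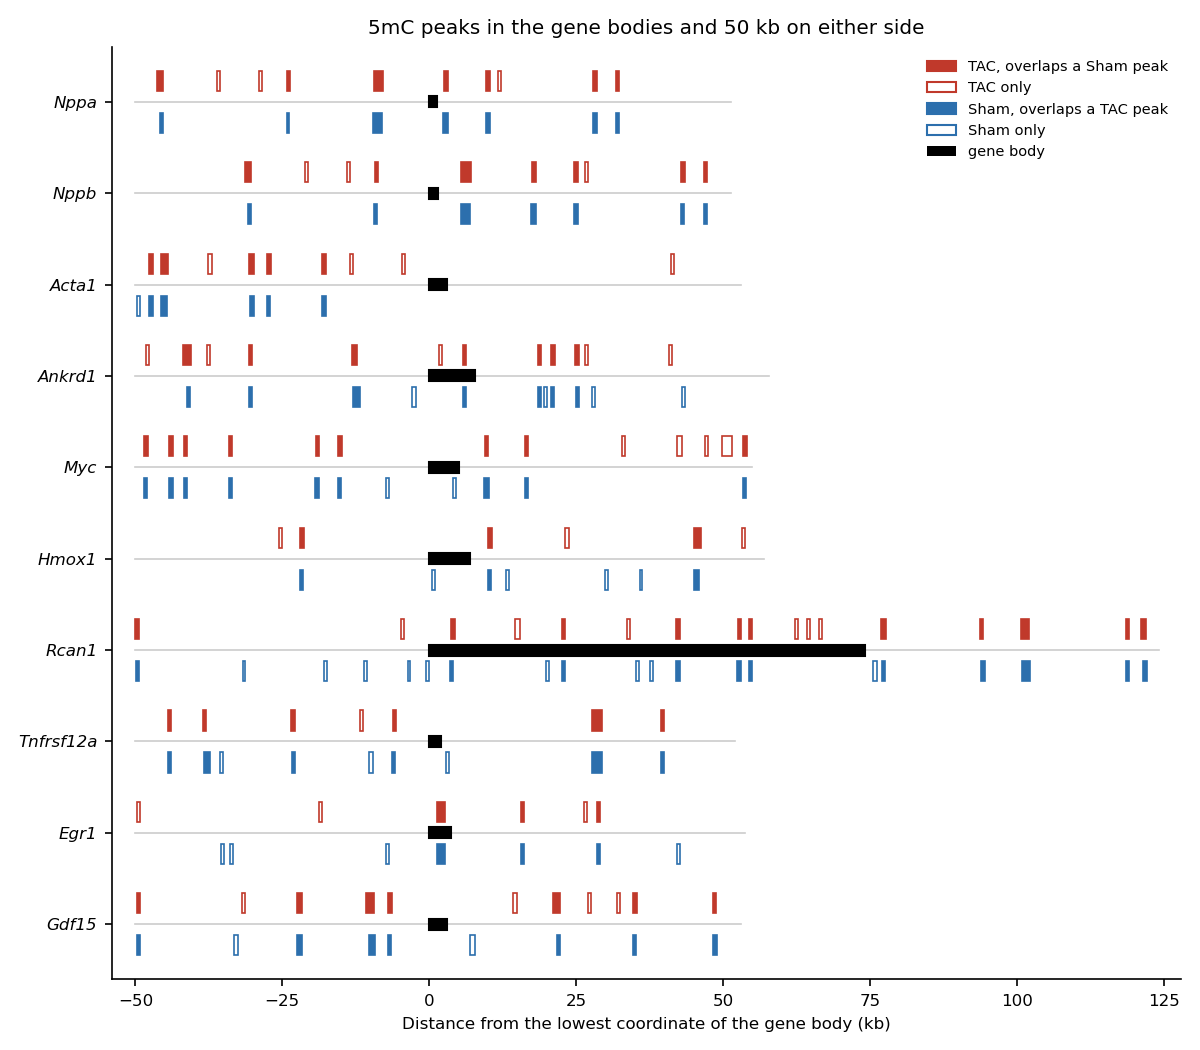
Position of each TAC peak (red, above the line) and Sham peak (blue, below the line) relative to the lowest coordinate of the gene body, in kb. Black bars are gene bodies and grey lines the windows; filled boxes overlap a peak of the other library and open boxes do not. Open boxes of both colours are frequent at Egr1 and Hmox1, where 3 peaks of each library are shared, and 4 open red boxes follow each other on the right of Myc.

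**Figure D3:**
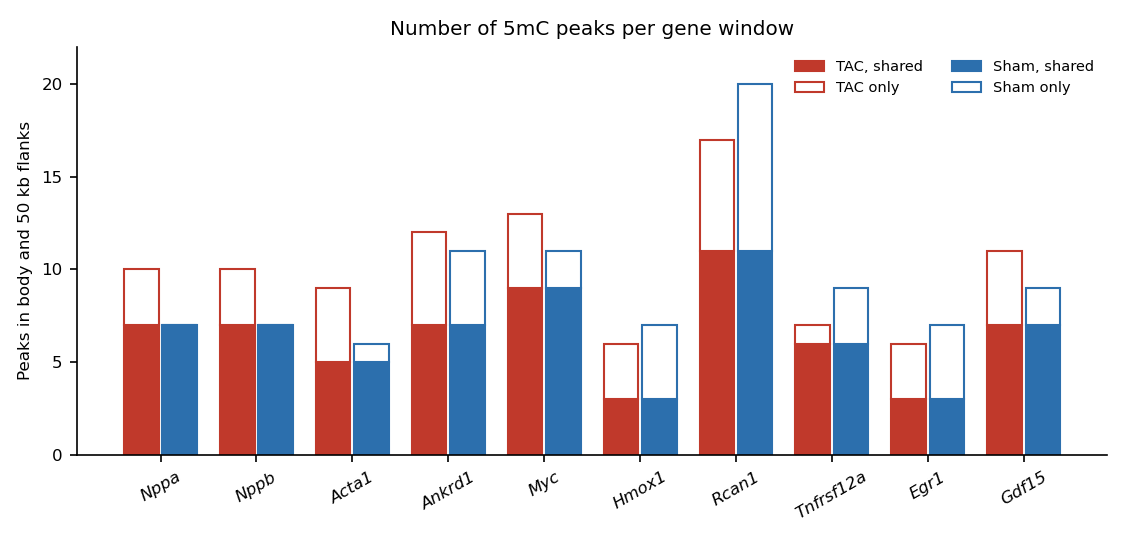
Number of peaks in the body and 50 kb flanks of each gene, TAC left and Sham right. Filled parts are peaks that overlap a peak of the other library, and open parts are peaks that do not. Nppa and Nppb have 7 Sham peaks, none of them open, and Rcan1 has the most peaks in both libraries.

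Neither hormone gene of chromosome 4 held a peak in its body in either library. Nppa (chr4:148000722-148002074, plus strand, 1353 bp) and Nppb (chr4:147985786-147987205, plus strand, 1420 bp) lay in gaps of 10280 and 14246 bp without a peak of either library. Of all protein-coding genes, 35.0% held no peak of either library, and among those of at most 10 kb, as 9 of the 10 members are, 69.8% held none. Peak-free genes had a median gap of 37202 bp. Gaps at least as long as that of Nppa surrounded 93.3% of them, and gaps at least as long as that of Nppb 85.9%. The gaps at the natriuretic genes were thus short ones. Each window held 10 TAC and 7 Sham peaks.

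The nearest peak of Nppa was shared and lay beyond the 3′ end. It began 1233 bp past that end in TAC and 1047 bp past it in Sham, between Nppa and the chloride transporter gene Clcn6. Its row fraction, the row number divided by the number of rows so that 0 is the top of a list, was 0.113 in TAC and 0.075 in Sham. From the 5′ end the distances were 2585 bp in TAC and 2399 bp in Sham. Nppb had its nearest peak 4073 bp past its 3′ end in TAC and 4036 bp past it in Sham. That peak, 1563 bp wide in TAC and 1518 bp wide in Sham, lay between the hormone genes and was the highest in the list of any in this window, at row fractions of 0.036 and 0.045. All 7 Sham peaks of the window had a TAC counterpart, and 3 TAC peaks had no Sham counterpart. Those 3 were 501 bp wide and stood low in the TAC list, at 0.842, 0.905 and 0.905.

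The starts of the natriuretic genes are given here, and no peak of either library overlapped the stretches shown. From the annotated 5′ end of Nppa the nearest peak lay 2585 bp away in TAC and 2399 bp in Sham. For Nppb the distances were 5492 and 5455 bp. The median over the ends of all protein-coding genes was 5449 bp in TAC and 6248 bp in Sham, so these starts were not remote from peaks. Each line holds 250 bases before to 50 after the start, from RefSeq on GRCm38.p6, written 5′ to 3′ with every CG in capitals, since CG is where 5mC sits. Their windows are chr4:148000472-148000771 and chr4:147985650-147985949, both on the plus strand. The Nppb window covers the annotated start of the gene body, 147985786, but is set on a start further inside the gene. Distances from the 5′ end are from the annotated start.
Nppa: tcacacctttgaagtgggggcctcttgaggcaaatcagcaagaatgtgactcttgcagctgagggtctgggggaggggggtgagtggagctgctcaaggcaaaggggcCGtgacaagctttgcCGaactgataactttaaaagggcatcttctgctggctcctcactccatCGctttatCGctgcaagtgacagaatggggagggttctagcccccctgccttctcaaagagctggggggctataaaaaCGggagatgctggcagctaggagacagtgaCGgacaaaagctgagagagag
Nppb: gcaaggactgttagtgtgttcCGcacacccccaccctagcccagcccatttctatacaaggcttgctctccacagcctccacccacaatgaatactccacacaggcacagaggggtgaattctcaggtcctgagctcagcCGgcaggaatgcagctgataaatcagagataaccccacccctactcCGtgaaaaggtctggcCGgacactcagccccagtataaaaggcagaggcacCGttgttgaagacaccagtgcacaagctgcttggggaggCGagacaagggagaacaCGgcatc
The Nppa window holds 6 CG and the Nppb window 7, where the median of all 32851 such windows is 7. The letters CG, which read the same on both strands, occur at least once in 94.6% of them. Windows of this kind overlapped a TAC peak in 4.86% of cases and a Sham peak in 4.89%. None of the 9 windows of the 7 members that have one did so.

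Gdf15, the third secreted factor, also held no peak in its body (chr8:70629393-70632470, minus strand, 3078 bp). Its window held 11 TAC and 9 Sham peaks, of which 7 in each were shared. On the 3′ side both libraries had a peak at nearly the same distance from the gene end, 6384 bp in TAC and 6474 bp in Sham. Upstream of the 5′ end they differed. The nearest Sham peak there lay 3827 bp away, was 861 bp wide, overlapped the non-coding gene Gm34154 and had no TAC counterpart. The nearest TAC peak on that side lay 11166 bp away, was 655 bp wide and had no Sham counterpart. Their row fractions were 0.374 in TAC and 0.304 in Sham.

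The muscle genes differed in where the nearest peaks lay. The body of Acta1 (chr8:123891758-123894775, minus strand, 3018 bp) held no peak. The nearest peak to its 3′ end lay at 4141 bp in TAC and 17533 bp in Sham. A pair of TAC peaks without a Sham counterpart, 501 bp wide and at row fractions of 0.416 and 0.854, lay in between. On the 5′ side no Sham peak lay within 50 kb, and the single TAC peak, 38192 bp away in the nuclear pore gene Nup133, stood at 0.924. The window held 9 TAC and 6 Sham peaks, a TAC share of 60.0% (32.3 to 83.7).

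Ankrd1 (chr19:36111965-36119844, minus strand, 7880 bp) had 2 TAC peaks and 1 Sham peak in its body. One pair was shared. It lay 1555 bp inside the 5′ end in TAC and 1571 bp inside it in Sham, at row fractions of 0.705 and 0.783. The other TAC peak lay 1647 bp inside the 3′ end, at 0.825, and had no Sham counterpart. The nearest Sham peak to the 3′ end lay 2204 bp beyond it, at 0.521, and had no TAC counterpart. In the window 7 of 12 TAC and 7 of 11 Sham peaks were shared. No end of Acta1 or Ankrd1 had a peak of either library within 1000 bp.

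Among the unshared peaks of the 10 windows, the one highest in its list was a TAC peak in the flank of Myc. The body of Myc (chr15:61985341-61990361, 5021 bp) held no TAC peak and 1 Sham peak, 501 bp wide, which lay 417 bp inside the higher-coordinate end at a row fraction of 0.448. The strand of Myc, Hmox1 and Egr1 is not in the tables used here, so their ends are named by coordinate. On the lower-coordinate side the libraries ran together. All 6 TAC peaks there were shared, 6 of the 7 Sham peaks were, and a Sham peak 6911 bp from the gene, at 0.871, was not.

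On the higher-coordinate side a run of 4 successive TAC peaks had no Sham counterpart. Over the whole list 71997 of 162107 TAC peaks had none. How often such runs occur elsewhere was not counted, so nothing is read from the run itself. The 4 peaks began 27815, 37184, 41862 and 44734 bp from the end of Myc, and none overlaps an annotated gene. Pvt1, a long non-coding RNA gene, starts 47625 bp from Myc. The first 3 stood at row fractions of 0.951, 0.311 and 0.951. The fourth, chr15:62035095-62036898, was 1804 bp wide and stood in row 1759 of the TAC list, within the first 1.09% of it. The nearest Sham peak lay 1910 bp away and was the counterpart of the next TAC peak, in Pvt1.

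The place of this peak is a description only, since the peak was picked as the highest unshared one of the 10 windows. Of the first 1759 TAC peaks 7 (0.398%) had no Sham counterpart, and the peak beside Pvt1 was the seventh in order among 71997. Of the 1663 TAC peaks at least as wide, 59 (3.55%) had none. The highest unshared Sham peak of the 10 windows, picked in the same way, stood at 22.9% of its list. Of the Sham rows up to it 5.42% had no TAC counterpart. The sources used here do not say what the order of rows rests on. The Myc window as a whole held 13 TAC and 11 Sham peaks, a TAC share of 54.2% (32.8 to 74.4), and 9 in each were shared.

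**Figure D4:**
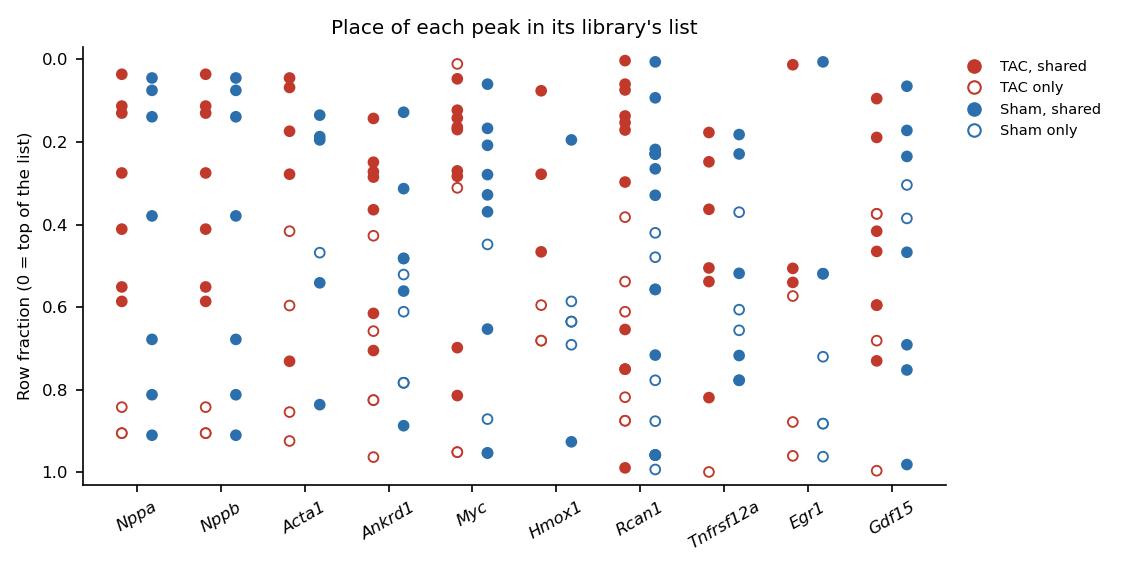
Row fraction of each peak in its own list (vertical axis, 0 at the top of the list) for the 10 gene windows, TAC left and Sham right. Filled points overlap a peak of the other library and open points do not; Nppa and Nppb share their peaks, and points at the same height coincide. Open points lie mostly low in both lists, and the open TAC point of Myc at 0.011 stands apart.

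The body of Egr1 (chr18:34861207-34864956, 3750 bp) carried a wide peak in both libraries, 1406 bp in TAC and 1386 bp in Sham, at row fractions of 0.013 and 0.006. It lay 1350 bp inside the lower-coordinate end in TAC and 1273 bp inside it in Sham. From the higher-coordinate end it lay 994 bp in TAC and 1091 bp in Sham. With the 1000 bp used for gene ends, Egr1 counted as covered in TAC alone, although the same shared peak lay on either side of that limit. In the whole window 3 of 6 TAC and 3 of 7 Sham peaks were shared.

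The remaining genes, of stress signalling, had a Sham peak at a gene end where TAC had none. Hmox1 (chr8:75093618-75100593, 6976 bp) held no TAC peak and 1 Sham peak in its body, 520 bp inside the lower-coordinate end, at a row fraction of 0.635. The nearest TAC peak to that end lay 10015 bp away. Beyond the other end a shared peak began at 3040 bp in TAC and 3082 bp in Sham. The window held 6 TAC and 7 Sham peaks, of which 3 in each were shared.

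Tnfrsf12a (chr17:23675445-23677449, minus strand, 2005 bp) held no peak in its body. Upstream of its 5′ end a Sham peak of 501 bp lay 873 bp away, at a row fraction of 0.656, and the nearest TAC peak to that end lay 7610 bp away on the far side of the gene. Its body overlaps that of Hcfc1r1 at the 3′ end. The window held 7 TAC and 9 Sham peaks, of which 6 in each were shared.

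Rcan1, at 74219 bp the longest of the set (chr16:92391951-92466169, minus strand), held 10 TAC and 8 Sham peaks in its body. In the whole window 11 of 17 TAC and 11 of 20 Sham peaks were shared, with 6 TAC and 9 Sham peaks without a counterpart. A Sham peak of 501 bp lay 35 bp beyond the 3′ end, at a row fraction of 0.420, where the nearest TAC peak lay 3646 bp away inside the gene. At the 5′ end the nearest peak lay 1276 bp upstream in Sham, with no TAC counterpart, and 2743 bp upstream in TAC, where it was shared. A run of 3 TAC peaks without a counterpart, at row fractions of 0.818, 0.538 and 0.875, lay in the body toward the 5′ end. That part overlaps the non-coding gene Gm46555. How common runs of this kind are over the whole list was not counted.

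Rcan1 is transcribed from alternative starts, and RefSeq gives windows for a pair of them. Among members whose strand is given, Tnfrsf12a and Rcan1 had the Sham peaks closest upstream of a 5′ end, at 873 and 1276 bp. At Ankrd1 a Sham peak lay 1571 bp inside the 5′ end. For the upstream peaks, the Rcan1 windows are shown with that of Tnfrsf12a. All are on the minus strand, at chr16:92466120-92466419 and chr16:92400029-92400328 for Rcan1 and chr17:23677400-23677699 for Tnfrsf12a, with every CG in capitals.
Rcan1, outer start: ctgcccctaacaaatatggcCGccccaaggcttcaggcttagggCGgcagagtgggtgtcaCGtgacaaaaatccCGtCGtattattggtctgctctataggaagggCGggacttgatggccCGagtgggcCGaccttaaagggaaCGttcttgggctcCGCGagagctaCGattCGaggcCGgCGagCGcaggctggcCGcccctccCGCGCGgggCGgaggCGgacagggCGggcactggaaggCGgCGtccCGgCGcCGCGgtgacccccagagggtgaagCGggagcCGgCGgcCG
Rcan1, inner start: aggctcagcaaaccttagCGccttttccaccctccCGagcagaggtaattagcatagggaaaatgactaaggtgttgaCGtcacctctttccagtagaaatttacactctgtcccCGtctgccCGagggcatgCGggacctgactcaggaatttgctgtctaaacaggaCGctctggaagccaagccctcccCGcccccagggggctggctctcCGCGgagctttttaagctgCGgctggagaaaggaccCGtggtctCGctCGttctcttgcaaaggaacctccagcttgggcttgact
Tnfrsf12a: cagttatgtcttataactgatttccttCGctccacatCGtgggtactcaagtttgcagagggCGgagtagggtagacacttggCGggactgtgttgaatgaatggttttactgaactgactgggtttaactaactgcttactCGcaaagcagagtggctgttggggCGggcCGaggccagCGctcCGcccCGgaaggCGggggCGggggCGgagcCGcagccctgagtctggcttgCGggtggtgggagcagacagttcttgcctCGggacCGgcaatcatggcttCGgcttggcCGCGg
The outer Rcan1 window holds 33 CG, a number that 8.56% of all windows reach, and the inner one 14, which 36.3% reach. The Tnfrsf12a window holds 20, which 26.5% reach. The outer Rcan1 window lay 2493 bp from a TAC and 1026 bp from a Sham peak, the inner one 3677 and 3954 bp, and the Tnfrsf12a window 7561 and 623 bp. Windows with 20 or more CG overlapped a TAC peak in 1.93% of cases and a Sham peak in 1.46%, against 6.07% and 6.27% of windows with under 10 CG. The other windows of the set hold 12 CG at Acta1, 7 at Ankrd1, and 1 and 7 at the pair of Gdf15 starts. Myc, Hmox1 and Egr1 are named only.

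Counted over the set, a peak within 1000 bp of a gene end was seen for 1 member in TAC (Egr1) and for 4 in Sham (Hmox1, Myc, Rcan1 and Tnfrsf12a). Over all protein-coding genes 24.5% had such a peak in TAC and 23.6% in Sham. The single TAC member was covered in TAC alone, as 8.59% of genes were. All 4 Sham members were covered in Sham alone, as 7.68% of genes were. No member was covered in both, as 16.0% of genes were. The genes were picked with these results known, so the count is not independent evidence of a direction. Each of the 4 Sham peaks was 501 bp wide, the commonest width, and stood between 0.420 and 0.656 in the Sham list, where the median of all unshared Sham peaks was 0.707. Genes with a peak in the body numbered 3 of 10 in TAC (Ankrd1, Rcan1 and Egr1) and 5 of 10 in Sham, with Myc and Hmox1 added. Among protein-coding genes as a whole, 59.1% had one in TAC and 57.3% in Sham. In those up to 10 kb long the shares were 23.3% and 24.3%.

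**Figure D5:**
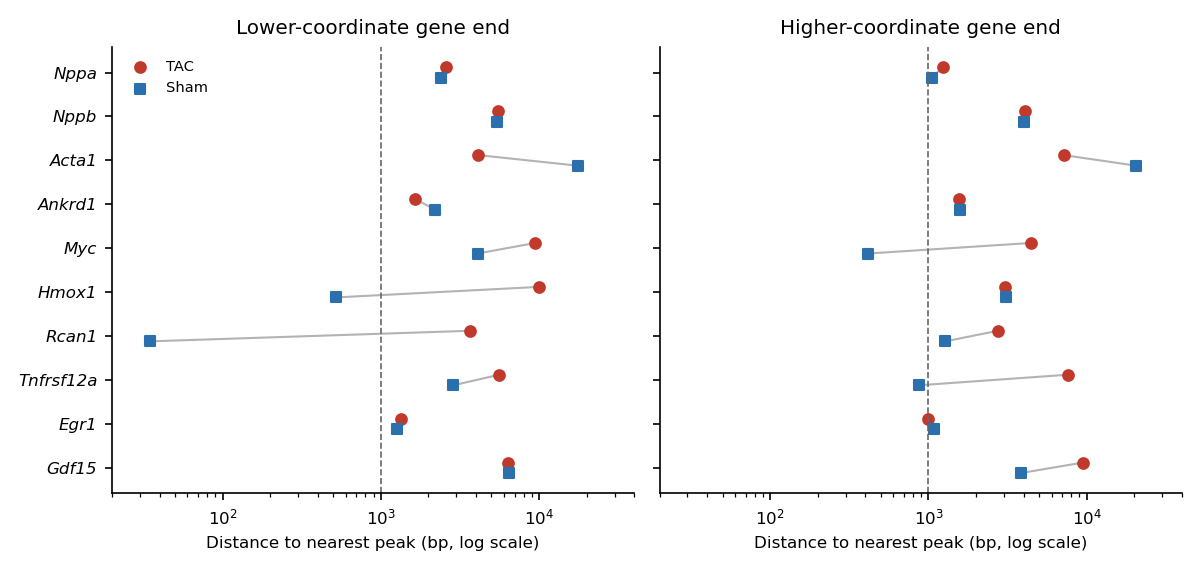
Distance in bp, on a log scale, from each gene end to the nearest edge of the nearest TAC peak (red circles) and Sham peak (blue squares), for the lower-coordinate end (left) and the higher-coordinate end (right). The dashed line marks 1000 bp. Sham squares lie left of it for Hmox1 and Rcan1 at the lower end and for Myc and Tnfrsf12a at the higher end, and the TAC circle of Egr1 lies at 994 bp.

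Over the 20 gene ends the median distance to the nearest peak was 4107 bp in TAC and 2301.5 bp in Sham. Over the ends of all protein-coding genes the order was the other way, at 5449 bp in TAC and 6248 bp in Sham. The intervals of the member medians, 2585 to 6384 bp in TAC and 1091 to 4036 bp in Sham, overlap. The TAC interval holds 5449 bp, while the Sham interval lies below 6248 bp. Both ends of a member often have the same nearest peak, so these distances are not independent. The members were also picked with earlier results known, so no direction is read from the medians. Peaks of the windows had a median row fraction of 0.466 in TAC and 0.521 in Sham, and ranks from lists of different lengths show no change of a peak. Unshared peaks stood lower, with medians of 0.75 in TAC and 0.635 in Sham, against 0.278 and 0.423 for shared peaks. The whole lists had the same order. Their medians were 0.695 in TAC and 0.707 in Sham for unshared peaks, against 0.317 and 0.371 for shared peaks. Of the TAC peaks 49.5% lay in no annotated gene, 14.3% in a member's body and 36.3% in another gene. Of the Sham peaks 47.1%, 13.8% and 39.1% did. These shares were not computed for other windows, so they say nothing particular about the members.

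Related genes were taken from 4 lists. In the natriuretic peptide system, 12 of 15 genes had a body peak in TAC and 13 in Sham, against 59.1% and 57.3% of all protein-coding genes. These genes held 181 TAC and 177 Sham peaks, of which 64 and 55 lay in Prkg1 alone, a cyclic GMP-dependent kinase gene. Ends were covered in both libraries in 3, in TAC alone in 2 and in Sham alone in 3. For this list and those that follow, the shares over all protein-coding genes were 16.0% in both, 8.59% in TAC alone and 7.68% in Sham alone, and with so few genes a list nothing is read from a count. Mme, the peptidase neprilysin that degrades these hormones, and Npr3, their clearance receptor, were covered in TAC alone, with 3 and 5 body peaks in each library. Npr1 and Npr2, the guanylyl cyclase receptors, and Prkg2, a relative of Prkg1, were covered in Sham alone. Npr1 held 3 TAC and 4 Sham body peaks, Npr2 3 and 6, and Prkg2 12 and 11. The nearest peak to an end of Npr1 lay at 1093 bp in TAC and 973 bp in Sham, so that call rests on a short distance.

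Among 25 immediate early and stress genes, ends were covered in both libraries in 4, in TAC alone in 1 and in Sham alone in 2. Fos, Fosb, Maff and Mycn were covered in both. Mxd1, which competes with Myc for its partner Max, was covered in TAC alone, at a distance of 0 bp in TAC and 3601 bp in Sham. Max itself was covered in Sham alone, at 4026 bp in TAC and 681 bp in Sham, and so was Egr2, a relative of Egr1, at 1691 bp in TAC and 0 bp in Sham. The median window held 11 peaks in each library.

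Of 29 other fetal and load-induced genes, ends were covered in both libraries in 7, in TAC alone in 2 and in Sham alone in 5, and bodies held 48 TAC and 36 Sham peaks. The matricellular gene Ccn1 and the osteopontin gene Spp1 were covered in TAC alone. Ankrd2, a relative of Ankrd1, the galectin gene Lgals3, the atrial light chain gene Myl4, the protease inhibitor gene Timp1 and the slow troponin I gene Tnni1 were covered in Sham alone. Of 26 partners of Rcan1, Hmox1, Tnfrsf12a and Gdf15, ends were covered in both libraries in 6, in TAC alone in 4 and in Sham alone in 2. Tnfsf12, which encodes TWEAK, and Rcan2 were covered in both. Nfe2l2, which encodes the activator NRF2 of Hmox1, Keap1, which restrains NRF2, Rcan3 and Ret, the co-receptor of GDF15, were covered in TAC alone. Nfatc2 and the calcineurin gene Ppp3ca were covered in Sham alone, with Ppp3ca at 1076 bp in TAC and 828 bp in Sham.

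The labelled cell type cannot be checked by expression in these data. Over all protein-coding genes 59.1% had a body peak in TAC and 57.3% in Sham. Body peaks of cardiomyocyte markers occurred in 8 of 10 genes in TAC and 7 in Sham, with 58 TAC and 34 Sham peaks. Of these, 31 TAC and 20 Sham peaks lay in Ryr2 alone. Fibroblast markers had them in 4 of 8 in TAC and 5 in Sham (14 and 9 peaks), endothelial markers in 7 of 7 in both (45 and 46 peaks), smooth muscle and pericyte markers in 6 of 6 in TAC and 5 in Sham (25 and 24 peaks), and immune markers in 4 of 7 in TAC and 6 in Sham (27 and 18 peaks). Ends covered in Sham alone, the pattern of 4 members, occurred in 2 immune markers (Cd14 and Cd68), 2 smooth muscle and pericyte markers (Cspg4 and Pdgfrb) and no cardiomyocyte, fibroblast or endothelial marker. Ends covered in TAC alone occurred in none of these lists. Among protein-coding genes as a whole the figures were 7.68% in Sham alone and 8.59% in TAC alone, and with 6 to 10 genes a list no difference between cell types is read from these counts. The part of other cell types in the results was not tested.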

How the data were processed

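The authors deposited 1 peak list per MeDIP-seq library, TAC and Sham. The submitters' processing notes name mm10, HOMER 4.5, BWA 0.7.4-r385 and Picard. HOMER called broad regions in each library against 1 shared input, with at least 4-fold over input, a p threshold of 0.0001 and a tag threshold of 12 in TAC and 11 in Sham, per the file headers. As deposited, every row has a score of 1, so peaks carry no signal. Rows run in 414 blocks in TAC and 352 in Sham, sorted by position within a block. The widest holds 8.57% of TAC and 10.5% of Sham rows, so a row fraction is known only to within its block.

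Peak starts were converted to 1-based positions. Overlap, distances to the nearest edge and counts were computed with Python 3.11.15, numpy 2.4.6, pandas 2.3.3 and scipy 1.17.1, and tested on simulated intervals. Figures were drawn with matplotlib 3.10.9. Intervals of shares are exact (Clopper-Pearson, 95%), and 95% intervals of medians were taken from the ranked values. Neighbouring peaks are not independent, so these may be too narrow. The Input library was not analysed here. All members are named. Other genes are named where a member peak lies in them or where a list gene was covered at an end in 1 library alone. Named outside that rule, after their values were seen, are some list genes covered in both libraries, Prkg1, Ryr2 and Hcfc1r1. The flanking genes Plod1, Kcne1 and Cldn6 are too. Members and lists were chosen with earlier results of these data known. Acta2, Myh6, Nppc, Postn and Tnni3 stand in 2 lists each. Alternatives varied the flank, the overlap, the end distance and the rows kept.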

Additional observations from a re-analysis of the deposited data

How the results depend on the processing

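No paired analysis was possible because each group has 1 library and no result comes from a test. The TAC share of peaks in the windows lay between 43.9% and 53.5% under 9 alternatives (flanks of 0, 10, 25 and 100 kb, midpoints, the first 90% or the upper 50% of rows, TAC held to the Sham number of rows, and base pairs), all inside its interval. With TAC held to the Sham number of rows the shared part of TAC peaks moved to 73.7%. Only the TAC list was cut in that setting. With the first 90% of rows of both lists the shared part of TAC peaks was 61.7%. Members with a covered end depended on the distance. At 500 bp they numbered 0 in TAC and 2 in Sham (Myc and Rcan1), with 0 in TAC alone and 2 in Sham alone. At 2000 bp they were 3 in TAC and 7 in Sham, with 0 in TAC alone and the same 4 in Sham alone, and Egr1 was covered in both. At 5000 bp they were 8 and 9, with 1 in TAC alone (Acta1) and 2 in Sham alone (Gdf15 and Tnfrsf12a). With the first 90% of rows, or TAC held to the Sham number, the members covered at 1000 bp were the same. Median row fractions of body peaks alone were 0.705 in TAC and 0.676 in Sham, outside the intervals of the window medians (0.363 to 0.595 and 0.42 to 0.635). Of 75 values for single genes 5 moved outside their interval. Of the values for the whole set 13 moved and 32 stayed, with counts of covered ends judged by their fold change instead of an interval. A peak missing from 1 list may lie just under its threshold, and depth per region is unknown.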

Other observations

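The 50 kb flanks also hold 28 other protein-coding genes. Their bodies held 42 TAC and 41 Sham peaks, and ends were covered in 10 genes in TAC and 13 in Sham, 8 of them in both. Covered in TAC alone were Ccsap, beside Acta1, and Pgpep1, beside Gdf15. Covered in Sham alone were Plod1, a collagen lysyl hydroxylase gene beside Nppb, the replication gene Mcm5 beside Hmox1, Kcne1, a potassium channel subunit gene beside Rcan1, the claudin gene Cldn6 beside Tnfrsf12a, and the translation termination gene Etf1 beside Egr1. For comparison, 24.5% of the 21887 protein-coding genes had a covered end in TAC, 23.6% had one in Sham and 16.0% in both libraries. Coverage was limited to TAC for 8.59% of them and to Sham for 7.68%. The 28 neighbours are too few for a direction to be taken from their counts. Kcne1 and Cldn6 held no peak in their bodies in either library. The Sham peak upstream of Tnfrsf12a lies between Tnfrsf12a and Cldn6, so 1 peak gives both genes their covered end.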
